A study of Mus musculus with 9 samples.

Results

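The genes of the nuclear pore and of the nuclear transport receptors were taken from a table of 15184 genes by their names. A gene was a member if its name began with *Nup*, *Kpna*, *Kpnb*, *Ipo*, *Xpo* or *Tnpo* followed by a number (or was *Xpot*), which 43 of the 15184 genes met. Of these, 20 were nucleoporins and 23 were importins, transportins and exportins. The table held genes with a normalized count above 10 in at least 30% of libraries, which for 9 libraries is 3, and genes removed by that filter were not analysed here. Of the members, 41 were above 10 in every library. *Nup210* and *Kpna2-ps* were not, and entered the table mainly through SAM libraries, so the count of called members is also given without them.

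Nuclear pores are channels through the nuclear envelope, built from many copies of a set of proteins called nucleoporins. Outer and inner ring nucleoporins form the scaffold, others line the central channel with unstructured repeats rich in phenylalanine and glycine, and others form the nuclear basket, the cytoplasmic filaments and the membrane ring. Cargo is carried by karyopherins. Importins and transportins bring proteins in, exportins take proteins and RNA out, importin alpha adapters read the classical import signal and hand the cargo to importin beta, and the small GTPase Ran sets the direction. In fibroblasts and other dividing cells, pores are made anew as the nucleus grows and as it is rebuilt after mitosis.

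Mouse embryonic fibroblasts (MEFs, cells cultured from mouse embryos) carried the synergistic activation mediator (SAM) system, in which an inactive Cas9 and a guide RNA recruit activators to a chosen promoter, here that of *Hnrnpk*, which encodes an RNA-binding protein. According to the study's methods, WT MEFs were transduced with lentiviruses of the lentiMPHv2 and lentiSAMv2 plasmids, selected with blasticidin and hygromycin, and given the guides independently. The groups were 3 libraries labelled Empty vector (Empty), 3 of line SAM1 and 3 of line SAM2, the last 2 groups labelled *Hnrnpk*_SAM. The labels do not say which guide each line carries, the methods name a nontargeting guide as the SAM control but list 1 and the same sequence for it and for an *Hnrnpk* guide, and neither says whether libraries of a line came from separate cultures. What guide, if any, the Empty libraries carried is therefore not settled by the sources used here. The p-values measure the spread between libraries, which may be technical. The study's methods give the age of the embryos, but their sex and the number of clones are not given in the sources used here.

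Reads on the listed genes numbered from 41759636 to 49026626 a library, at which the members with high counts were measured closely. *Hnrnpk* itself had normalized counts of 25058, 26098 and 26164 in Empty, 24102, 24044 and 23619 in SAM1 and 26608, 26859 and 26221 in SAM2. The mRNA was called lower in SAM1 (log2 fold change -0.11 ± 0.03 SE, limma adjusted p = 0.00252) and was not called in SAM2 (0.04 ± 0.03, adjusted p = 0.159). It did not separate the libraries labelled *Hnrnpk* SAM from Empty as a group (-0.03 ± 0.05, limma adjusted p = 0.642), so every direction below is that of the labelled libraries. All 10 fibroblast markers of a fixed list were measured, with summed normalized counts from 1022260 to 1115780 in Empty, 843472 to 903972 in SAM1 and 1146540 to 1185210 in SAM2. Over both lines *Dcn*, *Pdgfra* and *Thy1* were called lower and *Pdgfrb* higher. Of the other lists, the 2 epithelial markers with values summed to at most 113, *Kdr* brought the 3 endothelial markers to 4586 or more in SAM1 against at most 325 in Empty, *Cd68* stood alone for the immune list and *Des* for the muscle list (at most 583 and 245). *Epcam*, *Krt18*, *Ptprc*, *Adgre1*, *Myod1* and *Myog* were not analysed here. The 10 proliferation genes summed to between 28580 and 28731 in Empty and between 57709 and 59797 in the SAM libraries. All 10 of them were called higher, with a median log2 fold change of 1.30, and the part of these genes and of *Kdr* in the changes of the pore genes was not tested.

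Pore and receptor genes were more often higher than lower in the SAM libraries. With the 6 SAM libraries set against the 3 Empty libraries, 22 of the 43 members were called higher (limma adjusted p below 0.05; 26.8% of all genes were) and 6 were called lower (27.0% of all genes). Their median log2 fold change was 0.20, against 0.01 for all 15184 genes. In line SAM1 alone 24 members were higher (37.3% of all genes) and 12 lower (36.9%), with a median of 0.16. In line SAM2 alone 27 were higher (35.2% of all genes) and 8 lower (35.3%), with a median of 0.26. The comparisons share the Empty libraries, so they are not independent of each other. Scaling each library by the sum of its values instead raised the median of all genes by 0.12, 0.14 and 0.10 in these comparisons, and split the SAM1 members as 29 higher and 6 lower. With that scaling 7232 of the 15184 genes were called higher and 4101 lower in SAM1. Without *Nup210* and *Kpna2-ps*, 21 of 41 members were higher and 6 lower over both lines, 23 and 12 in SAM1, and 25 and 8 in SAM2. As bulk RNA was measured, a change in the share of cells of a kind and a change of RNA per cell cannot be told apart.

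**Figure D1:**
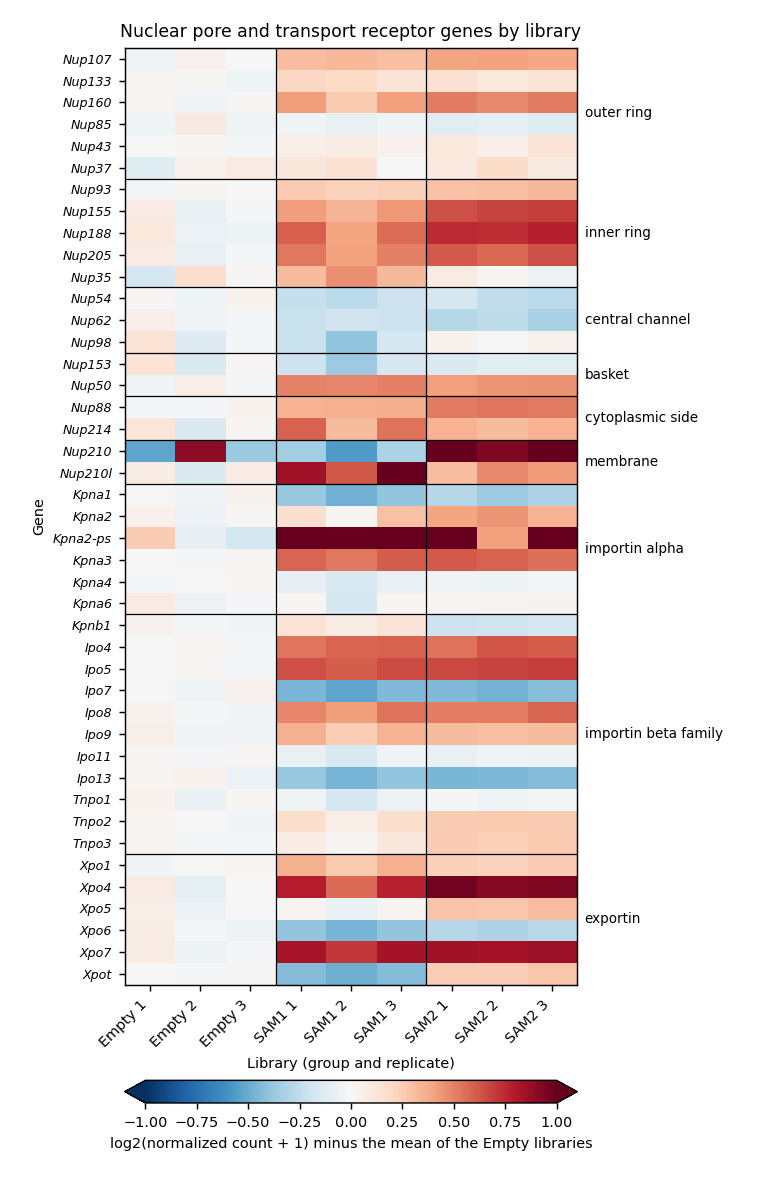
Each row is a member and each column a library, and the color gives log2(normalized count + 1) minus the mean of the 3 Empty libraries, with the scale ending at -1 and 1. Red rows fill most of the scaffold, *Ipo4*, *Ipo5*, *Ipo8*, *Xpo4* and *Xpo7* in all 6 SAM libraries, while *Xpot* is blue in SAM1 and red in SAM2.

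The heat map of members by library shows how little the libraries of a group differed beside most group differences. For 22 members all 6 SAM libraries lay above all 3 Empty libraries (25.9% of all genes), and for 8 all lay below (27.2% of all genes). The groups overlapped for 13. Of the nucleoporins 12 lay entirely above and 2 entirely below, and of the receptors 10 lay above and 6 below. *Kpna2-ps*, which entered the table through SAM libraries, is among the 22 members and the 10 receptors that lay above.

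Levels per kilobase of the canonical transcript spanned a wide range in Empty. *Kpnb1*, the importin beta that carries cargo together with importin alpha, was first with 6721 ± 166 normalized counts per kb (SD, n = 3). *Ipo7*, an importin of ribosomal proteins and other cargo, had 3636 ± 108 per kb and *Xpot*, the exportin of tRNA, 2558 ± 24.5 per kb. *Nup85* (1906 ± 100.1 per kb) and *Xpo5* (1824 ± 76.3 per kb) came next and did not differ beyond their spread. At the low end, *Nup210l* had 12.5 ± 1.08, *Kpna2-ps* 4.32 ± 0.791 and *Nup210* 0.989 ± 0.660 per kb. These 3 lay far under the others, the next lowest being *Xpo4* with 225 ± 13.4 per kb. In SAM2 *Xpot* (3055 ± 37.0 per kb) lay above *Ipo7* (2664 ± 40.5 per kb), and in SAM1 *Ipo7* (2612 ± 77.1) stayed above *Ipo5* (2168 ± 36.8) and *Xpot* (1874 ± 41.3).

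The outer ring, the Y-shaped scaffold complex on both faces of the pore, had 6 members. In the comparison of 6 against 3 libraries 3 of them were higher in the SAM libraries and none was lower (26.8% and 27.0% of all genes were). *Nup160* (chr2:90507559-90567221 in GRCm39, as for the genes below), a large arm of that complex, had normalized counts of 2845, 2746 and 2825 in Empty, 3751, 3359 and 3718 in SAM1 and 4030.2, 3924 and 4011 in SAM2. All 6 SAM libraries lay above Empty, and the highest stood in SAM2. The log2 fold change was 0.43 ± 0.06 SE (limma adjusted p = 0.000193). It was 0.21 (adjusted p = 0.0718) when each library was centred on the other genes of the chromosome, chromosome 2, whose median log2 fold change was 0.21. *Nup107* (0.36 ± 0.04, adjusted p = 5.02e-05) and *Nup133* (0.15 ± 0.04, adjusted p = 0.00628), which form its stem, rose as well. *Nup43* and *Nup85*, of the other arm, and *Nup37*, which binds *Nup160*, had log2 fold changes of 0.08, -0.08 and 0.11 and did not pass the test. With library-sum scaling *Nup43* (0.20, adjusted p = 0.00141) and *Nup37* (0.23, adjusted p = 0.00801) were called higher, and *Nup85* was at 0.04. The mean of the line coefficients, whose error leaves out the spread between the lines, called *Nup43* higher and *Nup85* lower (adjusted p = 0.0432 and 0.0305). In SAM2 alone *Nup43* was called higher (0.10, limma adjusted p = 0.0348) and *Nup85* lower (-0.11, adjusted p = 0.0138).

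The inner ring, which anchors the scaffold to the membrane and holds the channel proteins, contained the nucleoporins that rose most among those with high counts. Of its 5 members, 4 were higher in the comparison of 6 against 3 libraries (26.8% of all genes were), with a median log2 fold change of 0.54 over the 5. *Nup188* (chr2:30176389-30234792), one of its large solenoid proteins, had 4825, 4315 and 4341 in Empty, 6773, 5884 and 6598 in SAM1 and 7534, 7496 and 7709 in SAM2. The 3 groups did not overlap, with Empty lowest and SAM2 highest. Its log2 fold change was 0.63 ± 0.09 SE (limma adjusted p = 0.000218), or 1.55-fold. *Nup205* (chr6:35154324-35224538), the related large solenoid, had 5930.4, 5312 and 5547 in Empty, 8057, 7376 and 7938 in SAM1 and 8567, 8324 and 8744 in SAM2. Here too the groups were apart in that order, and the log2 fold change was 0.54 ± 0.06 (adjusted p = 4.81e-05). *Nup155* (chr15:8138757-8190733), which ties the ring to the membrane nucleoporins, had 4364, 3929 and 4103 in Empty, 5503, 5232 and 5584 in SAM1 and 6466, 6608 and 6669 in SAM2. No library of one group reached into the next, and the log2 fold change was 0.54 ± 0.09 (adjusted p = 0.000677). *Nup93*, the linker to the channel proteins, rose by less (0.27 ± 0.03, adjusted p = 0.000105).

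These 4 inner ring genes lie on chromosomes 2, 6, 15 and 8, and stayed above Empty when centred on their chromosomes (log2 0.41, 0.37, 0.28 and 0.21, adjusted p from 0.000217 to 0.016). *Nup35*, the small membrane-binding member, was called higher in SAM1 (0.36 ± 0.08, adjusted p = 0.000951). In SAM2 the value was 0.02 ± 0.08 and did not pass. Over both lines it was 0.19 (adjusted p = 0.228), and -0.04 after centring on chromosome 2. Of the 43-base windows of its transcript, 80.2% also occur in a processed pseudogene on chromosome 7, and exons of *Dusp19* overlap it, so its counts are uncertain.

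Both members of the cytoplasmic side were higher over both lines (26.8% of all genes were). *Nup88* (chr11:70833884-70860815), which binds *Nup214* and the cytoplasmic filaments, had 3451, 3446 and 3572 in Empty, 4447, 4462 and 4497 in SAM1 and 5003, 5054 and 4998 in SAM2. The groups were apart, with SAM2 highest. This was a log2 fold change of 0.44 ± 0.06 SE (limma adjusted p = 0.000129), and 0.40 when centred on chromosome 11. *Nup214*, a docking site of exportin complexes, rose by 0.41 ± 0.08 (adjusted p = 0.00216), and by 0.19 (adjusted p = 0.0502) when centred on chromosome 2.

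Of the 3 nucleoporins of the central channel, *Nup62* and *Nup54* were called lower and none higher in the comparison of 6 against 3 libraries (27.0% and 26.8% of all genes were). The median log2 fold change was -0.23, and neither *Nup62* nor *Nup54* was called after centring on its chromosome. *Nup62* (chr7:44465354-44481258), the channel protein that receptors pass, had 4693, 4448 and 4473 in Empty, 3897, 3955 and 3916 in SAM1 and 3727, 3812 and 3619.6 in SAM2. All SAM libraries lay below all Empty libraries. That gave a log2 fold change of -0.25 ± 0.04 SE (limma adjusted p = 0.000581), close to that of chromosome 7 as a whole (median -0.24 over 1085 genes), and 0.01 (adjusted p = 0.909) after centring on that chromosome. *Nup54*, its partner, fell by 0.23 ± 0.04 (adjusted p = 0.000739) and was at -0.08 (adjusted p = 0.15) after centring on chromosome 5. A copy on chromosome 1 holds 39.3% of its windows. Exons of *Il4i1* on the same strand and of *Atf5* on the other overlap those of *Nup62*. The strand setting used for counting is not given in the sources used here.

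*Nup98* (chr7:101768605-101859615), a channel nucleoporin that also binds the mRNA export factor *Rae1*, had 7833, 6535 and 7082 in Empty, 6107, 5419 and 6347 in SAM1 and 7293, 7128 and 7349.6 in SAM2. The SAM1 libraries lay below the other groups, and SAM2 lay within the range of Empty. Against Empty the log2 fold change was -0.26 ± 0.06 in SAM1 (limma adjusted p = 0.00201) and 0.03 ± 0.06 in SAM2 (adjusted p = 0.736). The SAM1 value was -0.12 (adjusted p = 0.0856) with library-sum scaling. It was 0.02 (adjusted p = 0.81) in SAM1 and 0.26 (adjusted p = 0.00353) in SAM2 after centring on chromosome 7, and -0.04 (adjusted p = 0.582) in SAM2 without Empty replicate 2. Both lines together gave -0.12 ± 0.10, which did not pass the test and was 0.00 with library-sum scaling and 0.14 after centring.

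In the nuclear basket the 2 members differed. *Nup153* (chr13:46830473-46881492), a basket protein with a role in pore assembly, had 8641, 7119 and 7947 in Empty, 6814, 6113 and 7017 in SAM1 and 7128, 7312 and 7268 in SAM2. SAM1 lay below Empty throughout, and SAM2 overlapped it through Empty replicate 2. The log2 fold change was -0.25 ± 0.06 in SAM1 (limma adjusted p = 0.00278) and -0.12 ± 0.06 in SAM2 (adjusted p = 0.0947). Over both lines it was -0.19 (adjusted p = 0.0553), and was called with edgeR, DESeq2 and the mean of the line coefficients (adjusted p = 0.0466, 0.0373 and 0.00712). Without Empty replicate 2 it was -0.26 over both lines (adjusted p = 0.0206) and -0.20 in SAM2 (adjusted p = 0.00455), and without SAM1 replicate 2 the SAM2 value of -0.12 had an adjusted p of 0.046. The SAM1 call was lost with quantile normalization (-0.12) and library-sum scaling (-0.11), and centring on chromosome 13 turned the SAM2 value to 0.05. *Nup50*, which releases importin alpha from its cargo at the basket, rose by 0.46 ± 0.04 (adjusted p = 7.5e-06), and by 0.21 when centred on chromosome 15. Copies elsewhere hold 10.0% of the windows of *Nup50*.

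Per kilobase, the membrane members *Nup210l* and *Nup210* lay below all the other nucleoporin members in Empty. *Nup210l* (chr3:90011439-90119456), a paralog of *Nup210*, had 74.7, 64.1 and 74.8 in Empty, 128, 109.6 and 150.4 in SAM1 and 88.0, 99.2 and 95.6 in SAM2. The SAM libraries all lay above Empty, with SAM1 highest. Its log2 fold change was 0.62 ± 0.17 (limma adjusted p = 0.0128), and 0.55 (adjusted p = 0.0586) without Empty replicate 2. *Nup210* (chr6:90990050-91093995), a single-pass membrane protein of the pore known from differentiating muscle and nerve cells, had normalized counts of 4.09, 12.6 and 4.67 in Empty, 4.75, 3.95 and 4.88 in SAM1 and 17.8, 13.0 and 14.8 in SAM2. Empty replicate 2 stood at the level of SAM2, and the other Empty libraries at that of SAM1. At these few counts the SAM1 value against Empty was -0.41 ± 0.39, and 0.04 without Empty replicate 2. The SAM2 value was 1.14 ± 0.39, and 0.87 without Empty replicate 1. Quantile normalization gave -1.61 in SAM1, 0.84 in SAM2 and -0.39 over both lines, against 0.36 without it. No test is given, since the gene could have entered the table through SAM2 alone. A log2 scale with a pseudocount of 1 understates changes at this level.

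**Figure D2:**
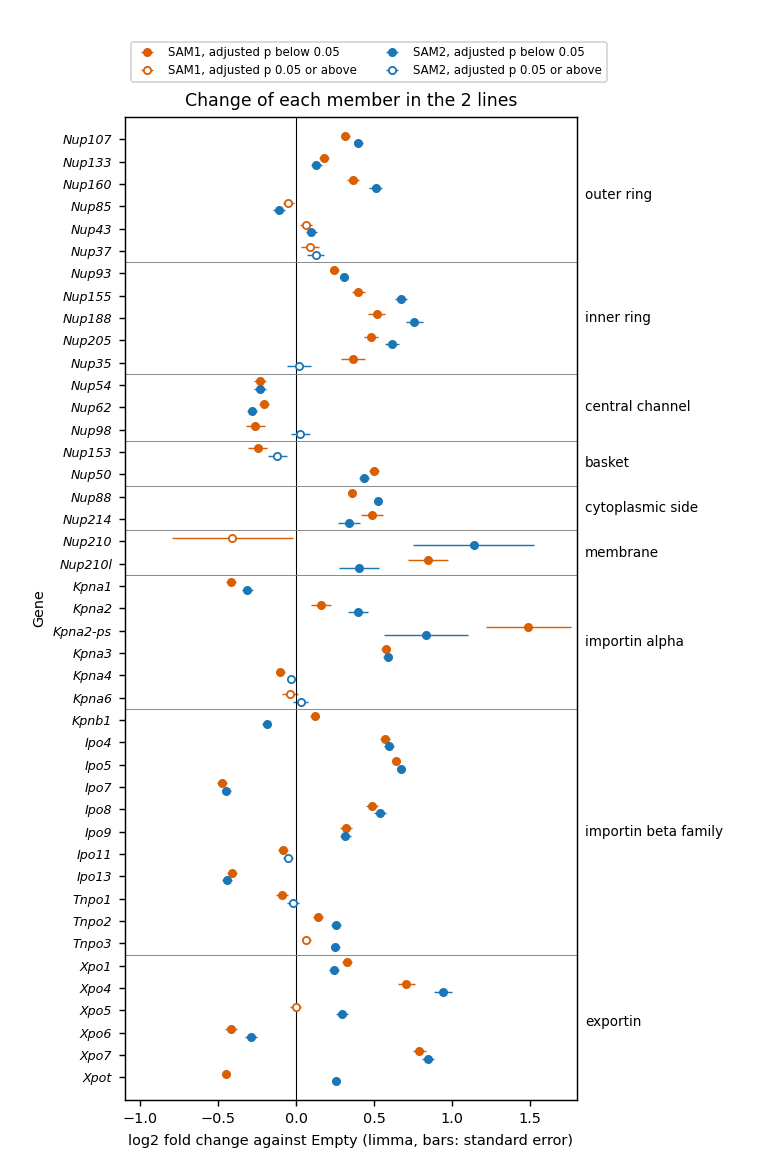
Points give the log2 fold change of each member in SAM1 (orange) and SAM2 (blue) against Empty from limma, bars the standard error, and open points an adjusted p of 0.05 or above (for *Nup210* and *Kpna2-ps*, which entered the table through SAM libraries, the fill is no test). The inner ring and *Nup88* and *Nup214* lie to the right of 0, and *Nup54* and *Nup62* to its left, while the points of *Xpot* and *Kpnb1* fall on opposite sides.

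The adapters of classical import, the importin alpha genes, changed unequally. *Kpna3* (chr14:61601398-61677662), importin alpha 4 by its common name, had 5203, 5108 and 5223 in Empty, 7769.8, 7449.7 and 7881 in SAM1 and 7919, 7803 and 7592 in SAM2. Both lines were far above Empty and alike in level. This amounted to a log2 fold change of 0.58 ± 0.03 SE (limma adjusted p = 7.47e-07). *Kpna3* lies on chromosome 14, where the median over 513 genes was 0.55 on the log2 scale, and was 0.03 (adjusted p = 0.421) above that median after centring. *Kpna1*, on chromosome 16, fell by 0.37 ± 0.05 (adjusted p = 0.000136), with 6504, 6375 and 6675 in Empty, 5014, 4661 and 4945 in SAM1 and 5342, 5107 and 5276 in SAM2, and stayed lower after centring (-0.25, adjusted p = 0.00802). *Kpna4* and *Kpna6* had values of -0.07 and -0.01 over both lines, and neither passed the test. Both were above 0 with quantile normalization (0.03 and 0.06) and with library-sum scaling (0.05 and 0.12), and *Kpna6* also after centring (0.13), without Empty replicate 1 (0.03) and without SAM1 replicate 2 (0.02). *Kpna4* was called lower after centring on chromosome 3 (-0.14, adjusted p = 0.0154) and with the mean of the line coefficients (-0.07, adjusted p = 0.0221). In SAM1 alone *Kpna4* was called lower without these changes (-0.10 ± 0.03, limma adjusted p = 0.00535). All SAM libraries of *Kpna4* lay below all Empty libraries.

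Per kilobase of canonical transcript, *Kpna1* made up 27.8% ± 0.419 (SD, n = 3) of the summed importin alpha level in Empty, 20.2% ± 0.259 in SAM1 and 20.7% ± 0.409 in SAM2. The share of *Kpna3* was 22.8% ± 0.189 in Empty, 33.0% ± 0.519 in SAM1 and 31.7% ± 0.481 in SAM2. Among *Kpna1*, *Kpna3*, *Kpna4* and *Kpna6*, the highest by this measure was *Kpna1* in every Empty library and *Kpna3* in every SAM library. *Kpna2* enters the sum as counted, although 93.1% of the 43-base windows of its transcript also occur in a copy elsewhere, so its level and place in the order are uncertain. The sum itself ranged from 4161 to 4309 normalized counts per kb in Empty and from 4161 to 4640 in the SAM libraries, so the ranges overlapped. *Kpna4* held 21.2% ± 0.395 in Empty and 19.2% ± 0.292 and 19.1% ± 0.250 in the lines, and *Kpna6* 20.9% ± 0.769, 19.8% ± 0.594 and 19.7% ± 0.293.

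**Figure D3:**
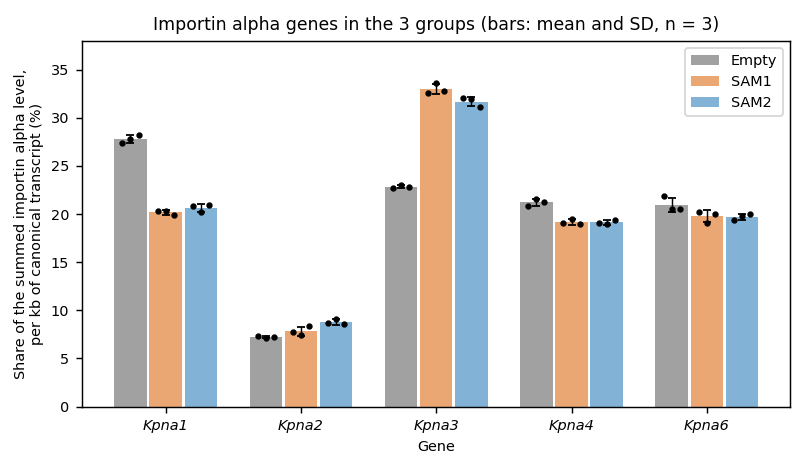
Bars give the mean share (%) of each importin alpha gene in the level per kb summed over the 5 genes, whiskers the SD of 3 libraries and dots the libraries. The bars of *Kpna1* fall from 27.8% in Empty to 20.2% and 20.7%, those of *Kpna3* rise from 22.8% to 33.0% and 31.7%, and the other 3 genes move by at most a few points, with *Kpna2* uncertain since most of its windows have a copy elsewhere.

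*Kpna2* (chr11:106879455-106890367), the importin alpha of rapidly dividing cells, had 652, 608 and 637 in Empty, 707, 638 and 774 in SAM1 and 829, 860.5 and 806 in SAM2. SAM2 lay above Empty, while SAM1 overlapped it through SAM1 replicate 2. The log2 fold change was 0.40 ± 0.06 in SAM2 (limma adjusted p = 0.000106) and 0.16 ± 0.06 in SAM1 (adjusted p = 0.0433). Over both lines it was 0.28 ± 0.09 (adjusted p = 0.0311). The calls in SAM1 and over both lines were lost without any of 7 of the 9 libraries each. Over both lines this held for every library but SAM1 replicates 1 and 2 (0.24 to 0.30, adjusted p from 0.0514 to 0.107), and in SAM1 for every library but Empty replicate 1 and SAM1 replicate 2 (0.09 to 0.16, adjusted p from 0.0532 to 0.219). *Kpna2* is also the member whose reads are hardest to place, since near-identical copies stand elsewhere in the genome. Of the 43-base windows of its transcript, the length of 1 read, 93.1% also occur in a copy, mainly *Kpna2rt* on chromosome 17 (99.9% identity over 1968 aligned bases) and processed pseudogenes on chromosomes 3 (99.7%) and 4 (97.1%). The study's alignment allowed reads to match several places. *Kpna2-ps* (chr17:47931696-47933264), a listed pseudogene of *Kpna2*, is 94.8% identical over 1563 aligned bases, with 82 mismatches. A stretch of 90 coding bases, beginning at coding base 61 and printed 5′ to 3′ from GRCm39, shows how few positions tell them apart. Capitals mark bases that differ from *Kpna2*, of which *Kpna2-ps* (chr17:47933116-47933205, minus strand) has 4, the copy on chromosome 4 (chr4:10853903-10853992, plus strand) 7, the copy on chromosome 17 (chr17:90217595-90217684, minus strand) 0 and the copy on chromosome 3 (chr3:25266620-25266709, minus strand) 1.
Kpna2: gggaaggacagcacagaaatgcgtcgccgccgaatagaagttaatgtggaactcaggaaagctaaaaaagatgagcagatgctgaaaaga
Kpna2-ps: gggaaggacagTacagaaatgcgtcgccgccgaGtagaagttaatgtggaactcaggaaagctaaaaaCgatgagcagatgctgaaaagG
copy on chromosome 4: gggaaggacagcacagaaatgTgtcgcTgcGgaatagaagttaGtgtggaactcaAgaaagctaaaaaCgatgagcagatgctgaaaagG
copy on chromosome 17: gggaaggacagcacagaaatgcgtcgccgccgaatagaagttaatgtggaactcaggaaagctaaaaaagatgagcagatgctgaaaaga
copy on chromosome 3: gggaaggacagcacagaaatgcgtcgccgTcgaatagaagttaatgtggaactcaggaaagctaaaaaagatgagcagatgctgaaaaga

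The pseudogene had normalized counts of 8.18, 6.30 and 5.84 in Empty, 19.9, 18.8 and 23.4 in SAM1 and 14.8, 9.27 and 14.8 in SAM2. The SAM1 libraries were highest, and those of SAM2 lay between SAM1 and Empty. The fitted log2 difference was 1.49 ± 0.27 in SAM1 and 0.83 ± 0.27 in SAM2, the latter 0.73 without SAM2 replicate 1 or 3. No test is given, since all 3 Empty libraries were below 10 and the gene entered the table through SAM libraries. Taken singly, 7.26% of the windows of *Kpna2* cannot be told apart from its pseudogene. According to the study's methods both ends of each fragment were read, so the other end may place some reads. The window shares given here and for other members do not take this into account.

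Importin beta and its relatives carry cargo through the pore. Of 11 genes, 5 were higher, 2 lower and 4 not called in the comparison of 6 against 3 libraries (26.8% of all genes were higher and 27.0% lower). *Ipo5* (chr14:121147750-121189195), an importin of ribosomal proteins and histones, had 11865, 11942 and 11729 in Empty, 18542, 18054 and 18636 in SAM1 and 18705, 18876 and 19087 in SAM2. The lines were well above Empty and close to each other. In log2 terms the change was 0.65 ± 0.03 SE (limma adjusted p = 2.93e-07). *Ipo4* (chr14:55862857-55873414), an importin of histones and ribosomal proteins, had 1991, 2024 and 1967 in Empty, 2888, 2983 and 2995 in SAM1 and 2899, 3085 and 3042 in SAM2. Again all SAM libraries lay above Empty, with a log2 fold change of 0.58 ± 0.04 (adjusted p = 1.24e-06). Both genes lie on chromosome 14, and after centring on it the values were 0.11 (adjusted p = 0.0109) and 0.04 (adjusted p = 0.419). Exons of *Gm49378* overlap those of *Ipo4* on the same strand. *Ipo8* (chr6:148672181-148733092), an importin also known for carrying Argonaute proteins and SMADs, had 2138, 2056 and 2046 in Empty, 2919.6, 2782 and 3036 in SAM1 and 2967, 2961 and 3106 in SAM2. The SAM libraries did not reach down to Empty, the log2 fold change was 0.51 ± 0.04 (adjusted p = 7.75e-06), and it was 0.33 (adjusted p = 0.000153) after centring on chromosome 6.

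*Ipo9*, an importin of histones and actin, rose by 0.32 ± 0.04 (limma adjusted p = 0.0001) although chromosome 1 as a whole had a median of -0.19. The largest falls of the family were those of *Ipo7* (-0.46 ± 0.04, adjusted p = 5.51e-06) and *Ipo13*, a receptor that works in both directions (-0.43 ± 0.04, adjusted p = 1.01e-05). Both stayed lower after centring on chromosomes 7 and 4 (-0.21 and -0.29). In *Ipo7* the counts went from 18505, 17872 and 18963 in Empty to 13405, 12808 and 13544 in SAM1 and 13565, 13291 and 13692 in SAM2, so that the closely related *Ipo7* and *Ipo8* moved in opposite directions. Of the transportins, which carry RNA-binding proteins, *Tnpo2* rose by 0.20 (adjusted p = 0.00671), a call lost after centring on chromosome 8 (0.14, adjusted p = 0.0915). *Tnpo3*, the importin of SR splicing factors, had 0.16 (adjusted p = 0.0565) over both lines and 0.25 (adjusted p = 8.02e-06) in SAM2. Its value over both lines was -0.02 after centring on chromosome 6. It passed the test without SAM1 replicate 1 (0.17, adjusted p = 0.0488) or 2 (0.19, adjusted p = 0.0162), with quantile normalization (0.24, adjusted p = 0.00247), library-sum scaling (0.28, adjusted p = 0.00139), edgeR (0.16, adjusted p = 0.0496), DESeq2 (0.16, adjusted p = 0.0386) and the mean of the line coefficients (0.16, adjusted p = 0.000131). In SAM1 alone *Tnpo1* and *Ipo11* were called lower (-0.09 for each, limma adjusted p = 0.0454 and 0.0368). Over both lines they had -0.06 and -0.07 and did not pass, although the mean of the line coefficients called *Ipo11* lower (adjusted p = 0.0484). Also over both lines, *Tnpo1* and *Ipo11* were above 0 with library-sum scaling (0.07 and 0.05) and after centring (0.06 and 0.05). With quantile normalization *Tnpo1* was above 0 as well (0.08). A copy elsewhere holds 18.3% of the windows of *Tnpo1*.

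*Kpnb1* (chr11:97050540-97078856), importin beta itself, had 41449, 39838 and 39627 in Empty, 44322, 42655 and 44142 in SAM1 and 34949, 35139 and 35839.6 in SAM2. SAM1 lay above Empty and SAM2 below it, without overlap. The log2 fold change was 0.12 ± 0.03 SE in SAM1 (limma adjusted p = 0.00208) and -0.19 ± 0.03 in SAM2 (adjusted p = 4.23e-05), the latter turning to 0.02 (adjusted p = 0.577) with quantile normalization. Over both lines it was -0.04 (adjusted p = 0.761), and 0.20 and 0.09 with quantile normalization and library-sum scaling, neither past the test. Copies elsewhere hold 7.41% of the windows of *Kpnb1*.

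Of the 6 exportins 3 were higher and 1 lower in the comparison of 6 against 3 libraries (26.8% and 27.0% of all genes were). In SAM2 5 were higher and 1 lower (35.2% and 35.3% of all genes). *Xpo1* (chr11:23205554-23248249), the main exportin of proteins and of ribosomal subunits (CRM1), had 9425, 9551 and 9783 in Empty, 12279, 11478 and 12258 in SAM1 and 11328, 11224 and 11436 in SAM2. All SAM libraries lay above Empty, and the SAM1 libraries lay just above those of SAM2. Its log2 fold change was 0.28 ± 0.04 SE (limma adjusted p = 0.000334), and 0.25 (adjusted p = 0.00357) after centring on chromosome 11. *Xpo7* (chr14:70891686-71004113), an exportin with broad cargo also known from red cell maturation, had 3894, 3567 and 3645 in Empty, 6551, 6052 and 6580.2 in SAM1 and 6629, 6591 and 6695 in SAM2. *Xpo4* (chr14:57814978-57902887), a receptor for eIF5A and SMAD3, had 2064, 1832 and 1954 in Empty, 3351, 2882 and 3320.3 in SAM1 and 3795, 3685 and 3722 in SAM2. For both genes every SAM library stood above every Empty library, and for *Xpo4* SAM2 also stood above SAM1. The log2 fold changes were 0.82 ± 0.04 (adjusted p = 5.67e-07) for *Xpo7* and 0.82 ± 0.09 (adjusted p = 4.11e-05) for *Xpo4*. They were 0.27 (adjusted p = 0.000497) and 0.28 (adjusted p = 0.0139) after centring on chromosome 14. Exons of *Npm2* overlap those of *Xpo7* on the same strand, and exons of *Gm49361* those of *Xpo4*. Copies elsewhere hold 7.66% of the windows of *Xpo4*. *Xpo6*, the exportin of actin, fell by 0.36 ± 0.05 (adjusted p = 0.000331), and was at -0.10 (adjusted p = 0.0858) after centring on chromosome 7.

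Where a member lies on the genome moved with its change. Of the 11 members called with a log2 fold change of 0.5 or more in either direction, 5 lay on chromosome 14 (*Ipo4*, *Ipo5*, *Kpna3*, *Xpo4* and *Xpo7*), which held 5 members in all. On that chromosome 345 of 513 genes (67.3%) were called higher and 29 (5.65%) lower, at any size of change. On chromosome 7, with 4 members, 117 of 1085 (10.8%) were higher and 499 (46.0%) lower. The share of all genes called with a log2 fold change of 0.5 or more is not given here. The count of 11 members can therefore not be set beside it. Whether the lines carry extra or fewer copies of a chromosome was not tested. When every library was centred on the median of each chromosome, 17 of 43 members were called higher (24.6% of the 14773 genes placed on a chromosome) and 4 lower (25.1%), and the median log2 fold change of the members was 0.11. All 17 had also been called higher before, and of the 6 called lower before, 3 were called lower again. Of the 20 nucleoporins 9 were higher and none lower after centring. Of the 38 members off chromosome 14, 17 were higher and 6 lower without centring (26.8% and 27.0% of all genes were). *Kpna2-ps*, for which no test is given, is counted among the 11 members above and in both counts of 17.

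**Figure D4:**
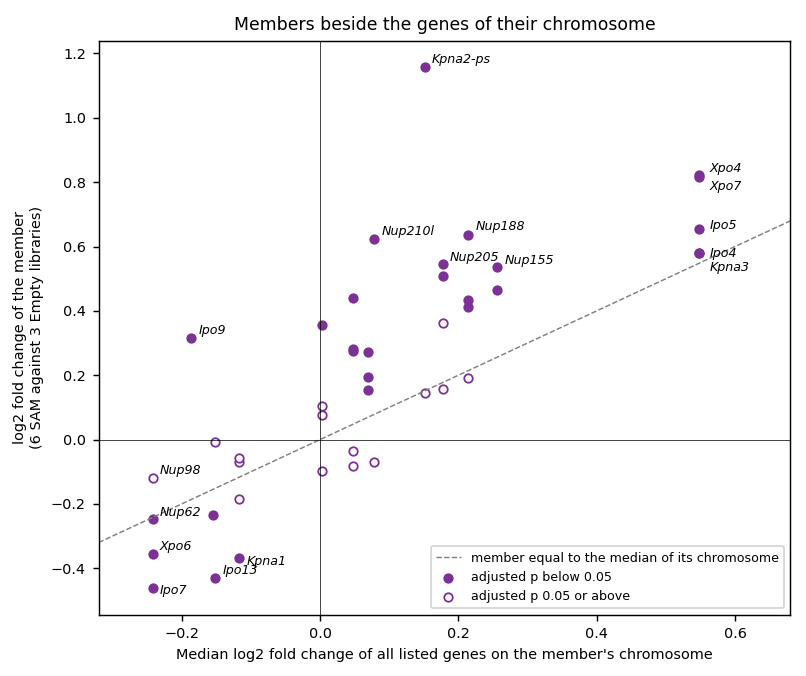
Each point is a member, placed by the median log2 fold change of all listed genes on its chromosome (horizontal) and its own log2 fold change of 6 SAM against 3 Empty libraries (vertical), filled where the adjusted p was below 0.05. For *Kpna2-ps*, which entered the table through SAM libraries, the fill is no test. The 5 members at the right lie on chromosome 14, of which *Ipo4* and *Kpna3* fall near the dashed line of equality and *Xpo4* and *Xpo7* above it, and *Ipo9*, *Nup188* and *Nup205* lie above their chromosomes.

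In the plot of members beside their chromosomes, the distance from the chromosome median was graded. *Kpna3*, *Ipo4* and *Nup62* changed by about as much as their chromosome. Among those that rose by more than theirs were *Nup107*, *Nup88*, *Nup205*, *Nup188*, *Ipo8*, *Ipo9* and *Xpo1*. *Ipo7*, *Ipo13* and *Kpna1* were among those that fell by more. Others lay between, such as *Ipo5* (log2 0.11 after centring) and *Tnpo2* (0.14).

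The lines SAM1 and SAM2 carry the same label, and 20 members differed between them. In SAM2 16 members were higher than in SAM1 (limma adjusted p below 0.05; 31.1% of all genes) and 4 were lower (29.2% of all genes), with a median difference of 0.06 (0.03 without SAM1 replicate 2). Without *Nup210* and *Kpna2-ps* it was 15 and 4 of 41. This split depended on the scaling, with 13 higher and 10 lower under library-sum scaling and 11 and 8 under quantile normalization. Over all genes these scalings gave 4090 higher and 5079 lower, and 4618 and 4377. Only *Xpot* and *Kpnb1* among the members were called on opposite sides of Empty in the lines. *Xpot* (chr10:121423281-121464796) had 10997, 10869 and 11077 in Empty, 8140.0, 7838 and 8149.5 in SAM1 and 13000.5, 13038 and 13292 in SAM2. The groups stood far apart, with Empty between the lines. Against Empty the log2 fold change was -0.45 ± 0.03 SE in SAM1 (adjusted p = 4.19e-09) and 0.26 ± 0.03 in SAM2 (adjusted p = 1.51e-06), and the lines differed by 0.71 ± 0.03 (adjusted p = 1.69e-10). The comparison of 6 against 3 libraries averaged these to -0.10 ± 0.20 (adjusted p = 0.707; 0.00186 for the mean of the line coefficients, whose error leaves out the spread between lines), with a value of 0.00 under quantile normalization and 0.03 under library-sum scaling. A pseudogene on chromosome 8 holds 24.7% of the windows of *Xpot*.

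**Figure D5:**
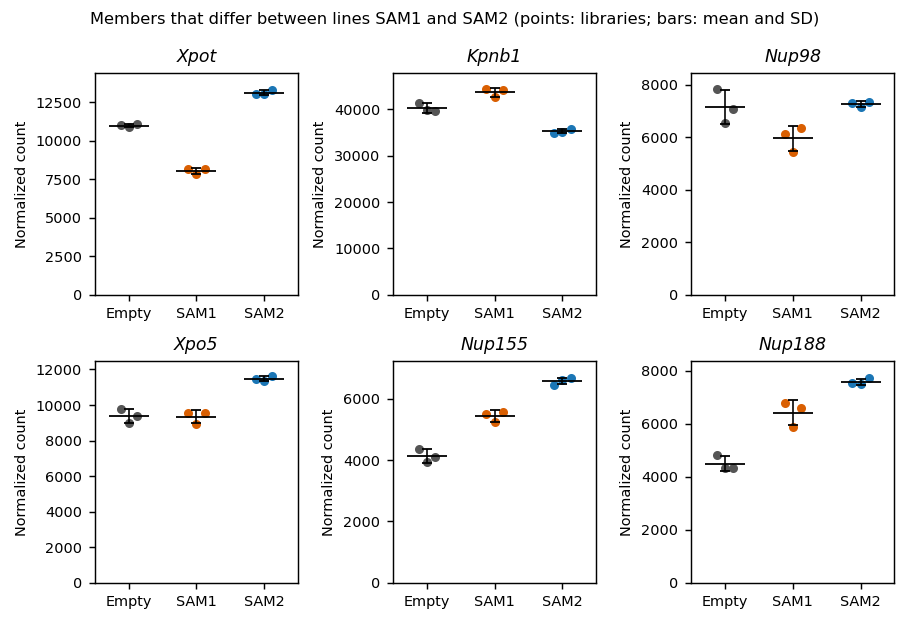
Normalized counts (vertical axis, from 0) of 6 members that differ between the lines, with a point for each library and a bar for the mean and SD of 3 libraries. *Xpot* and *Kpnb1* have Empty between the lines, SAM1 is lowest in *Nup98*, SAM2 is highest in *Xpo5*, and the groups rise from Empty through SAM1 to SAM2 in *Nup155* and *Nup188*.

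The plot of members that differ between the lines also shows *Xpo5*, the exportin of precursor microRNAs. It had 9777, 8994 and 9356 in Empty, 9534, 8933 and 9572 in SAM1 and 11442, 11363 and 11627 in SAM2. SAM1 lay within the range of Empty but for its replicate 2, which was slightly lower, and SAM2 lay above both. The difference between the lines was 0.30 ± 0.04 (limma adjusted p = 1.17e-05). For *Kpnb1* it was -0.31 ± 0.03 (adjusted p = 8.54e-07) and for *Nup98* 0.29 ± 0.06 (adjusted p = 0.00151). Of the 5 inner ring members 3 were higher in SAM2 than in SAM1 (31.1% of all genes were), by 0.28 for *Nup155* (adjusted p = 5.07e-05), 0.24 for *Nup188* (adjusted p = 0.0014) and 0.13 for *Nup205* (adjusted p = 0.017). The value of *Nup205* was not called without SAM1 replicate 2, SAM2 replicate 1 or SAM2 replicate 3 (0.10, 0.13 and 0.12, adjusted p = 0.0624, 0.0502 and 0.0703), nor with quantile normalization, library-sum scaling or centring (0.09, 0.10 and 0.05). *Nup93* did not pass (0.06, adjusted p = 0.0679). *Nup35* differed the other way (-0.35, adjusted p = 0.00197), as did *Nup210l* (-0.44, adjusted p = 0.00865), which was not called under quantile normalization. *Xpo1* was lower in SAM2 by a small margin (-0.08, adjusted p = 0.0344). That call was lost without SAM1 replicate 1 or 3 or any SAM2 library (-0.09 to -0.07, adjusted p from 0.061 to 0.133).

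Promoters are shown for *Nup188*, the nucleoporin with high counts that rose most, *Xpot*, which differed most between the lines among members above 10 in every library, and *Kpna2*, the adapter of dividing cells. Of the 43 members, 33 matched an entry in RefSeq promoters of GRCm38.p6, giving 40 windows of 250 bases before to 50 bases after the start. Capitals mark the E-box CACGTG (its own reverse complement), CCAAT and TTTGAA, the last 2 searched on both strands so that TTTGAA may read TTCAAA. The windows, 5′ to 3′ on the gene's strand, are chr2:30286330-30286415 (plus strand, -86 to -1 from the start) for *Nup188*, chr10:121626538-121626582 (minus strand, -250 to -206) for *Xpot* and chr11:106999526-106999580 (minus strand, -55 to -1) for *Kpna2*, in coordinates of GRCm38.p6.
Nup188: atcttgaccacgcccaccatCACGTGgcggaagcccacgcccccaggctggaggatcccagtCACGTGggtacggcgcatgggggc
Xpot: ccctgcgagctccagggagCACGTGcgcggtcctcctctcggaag
Kpna2: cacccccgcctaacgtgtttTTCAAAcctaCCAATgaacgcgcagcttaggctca
CACGTG occurred in 7 of 40 member promoters (17.5%, against 9.64% of 14248 promoters of all listed genes), those of *Ipo4*, *Ipo7*, *Nup188*, *Nup54*, *Nup93*, *Tnpo2* and *Xpot*. Of these, *Ipo4*, *Nup188*, *Nup93* and *Tnpo2* rose over both lines without centring, *Ipo7* and *Nup54* fell, and *Xpot* differed between the lines. CCAAT occurred in 21 (52.5%, against 37.8%) and TTTGAA in 7 (17.5%, against 12.4%). CCGGAAG was found in 17.5% (against 16.2%), GCATGCGC in 10.0% (against 4.78%), TTCGCGC in 5.0% (against 2.82%), TTGGCGC in 2.5% (against 3.99%) and TGATGNAA in none (against 2.39%). The first bases of TTGGCGC can overlap CCAAT read on the other strand, and a match is only a match of letters.

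Genes of nuclear transport outside the naming rule were taken from a list of 41, of which 13 were called higher and 9 lower in the SAM libraries (26.8% and 27.0% of all genes were). With library-sum scaling the counts were 19 and 5, where 5344 and 2838 of the 15184 genes were called. Their median log2 fold change was 0.06. Among the 10 other pore subunits, 4 were higher and 1 was lower. *Aaas* (aladin, a subunit anchored at the membrane ring) rose by 0.62 ± 0.11 SE (limma adjusted p = 0.0014), with 1989.8, 2033 and 1875 in Empty, 2557, 2709.7 and 2668 in SAM1 and 3359.7, 3528 and 3438 in SAM2. *Ndc1*, the membrane nucleoporin, rose by 0.41 ± 0.04 (adjusted p = 1.48e-05) and *Tpr*, the basket filament protein, by 0.23 ± 0.06 (adjusted p = 0.00802). *Ranbp2*, the large cytoplasmic filament protein, had 0.08 ± 0.08 over both lines (adjusted p = 0.464), and was called with quantile normalization (0.21, adjusted p = 0.0316) and library-sum scaling (0.20, adjusted p = 0.0461).

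Of the 13 genes of the Ran cycle, which gives transport its direction, and its receptors, 4 were higher and 4 lower, shares near those of all genes (26.8% and 27.0%). *Ran*, the GTPase, had 27819, 31056 and 30293 in Empty, 20343, 21858 and 19794 in SAM1 and 22640.3, 22754 and 22358 in SAM2. All SAM libraries lay below Empty, with a log2 fold change of -0.46 ± 0.06 SE (limma adjusted p = 0.000151). *Rangap1*, which makes Ran hydrolyse GTP in the cytoplasm, had 9059.8, 9834 and 9118 in Empty, 15436, 16219 and 15294 in SAM1 and 12964, 13450.4 and 13367 in SAM2. Here every SAM library lay above Empty and SAM1 above SAM2, with a log2 fold change of 0.63 ± 0.08 (adjusted p = 0.000117). After centring on chromosomes 5 and 15 the values were -0.30 for *Ran* and 0.37 for *Rangap1* (adjusted p = 0.000929 and 0.025). *Cse1l*, the exportin that returns importin alpha to the cytoplasm, rose by 0.31 ± 0.03 (adjusted p = 3.26e-05), and was at 0.09 (adjusted p = 0.107) after centring on chromosome 2. *Ranbp17*, a relative of *Xpo7*, fell by 0.62 ± 0.10 (adjusted p = 0.000507).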

How the data were processed

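RNA was sequenced from mouse embryonic fibroblasts in 3 libraries each of Empty, SAM1 and SAM2. According to the study's methods and processing notes, reads were checked with FastQC 0.11.0, aligned with TopHat2 using Bowtie2 and SAMtools, with alignments to several places allowed, and counted with HTSeq. The deposited values are a signal, gene counts that the authors divided by DESeq2 size factors, for genes above 10 in at least 30% of libraries. Versions of the other upstream tools and the strand setting of the counting are not given in the sources used here.

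Values were analysed as log2(normalized count + 1) with limma 3.58.1 in R 4.3.3 (variances shrunk towards a trend, Benjamini-Hochberg adjustment over 15184 genes, threshold 0.05). Fold changes are on that scale. The 6 SAM libraries were compared with 3 Empty libraries, and the lines were compared with Empty and with each other in a fit of 3 groups. Every value was a whole number of reads within 0.01 once divided by what 1 read was worth, and those reads were tested with edgeR 4.0.16 and DESeq2 1.42.0 as alternatives. Other alternatives were a pseudocount of 10, genes above 10 in every library, quantile normalization, library-sum scaling, a replicate block, centring on chromosomes, the mean of the line coefficients and leaving out each library. Tested on simulated data for the comparison of 6 against 3 libraries with all 15184 genes, limma recovered 90 of 103 changes of 1 and 77 of 97 changes of 0.5 on the log2 scale, with 8 false calls among 14984 genes. The simulation used 1 setting for the spread of every gene and the same change in SAM1 and SAM2. It also held far fewer changed genes than were called here, so these rates need not hold for these data.

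The members and lists were chosen with earlier results of these data known. Values in every library are given for members with adjusted p below 0.05 and an absolute log2 fold change of 0.5 or more in any comparison, and for *Kpna2*, *Kpnb1*, *Xpo1*, *Nup98*, *Nup62*, *Nup153* and *Nup210*. The values of *Kpna1*, *Ipo7* and *Xpo5* were added after they were seen. Of other transport genes, the 6 called with the largest changes and *Ran*, *Cse1l*, *Nxf1*, *Tpr* and *Ranbp2* were named by rule, and other genes of mRNA export after their values were seen. Gene positions and transcripts come from GRCm39, promoters from RefSeq on GRCm38.p6, copies were found with minimap2 2.31-r1302, and plots were drawn with matplotlib 3.10.9.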

Additional observations from a re-analysis of the deposited data

Results flagged for a closer look

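The lines SAM1 and SAM2, which share a label, differed in 20 members by limma's test of the difference itself. Of the 41 other transport genes, 13 were higher and 11 lower in SAM2 by that test (31.1% and 29.2% of all genes were). Only the 7 of these that were named by rule are listed. Each difference is given as SAM2 minus SAM1 on the log2 scale. Among nucleoporins SAM2 was higher for *Nup107* (0.083), *Nup160* (0.146), *Nup155* (0.275), *Nup188* (0.242), *Nup205* (0.134), *Nup98* (0.288), *Nup88* (0.167) and *Nup210* (1.55, a gene that could have entered the table through SAM2 alone), and lower for *Nup35* (-0.347) and *Nup210l* (-0.443).

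Among the receptors SAM2 was higher for *Kpna1* (0.105), *Kpna2* (0.239), *Tnpo2* (0.116), *Tnpo3* (0.186), *Xpo4* (0.233), *Xpo5* (0.297), *Xpo6* (0.127) and *Xpot* (0.705), and lower for *Kpnb1* (-0.308) and *Xpo1* (-0.0829). The largest difference among members above 10 in every library was that of *Xpot*.

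Of the other transport genes named by rule, *Aaas* (0.38), *Ranbp17* (0.21), *Ran* (0.129), *Eny2* (0.166), *Nxf1* (0.126) and *Ranbp2* (0.204) were higher in SAM2, and *Rangap1* (-0.239) was lower. Over the whole list of 41 the split was 13 higher and 11 lower.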

How the results depend on the processing

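Direction and side of the threshold were kept in 935 of the comparisons of named genes made without 1 library (28 became weaker, 5 stronger and 4 turned), and in 829 under the other settings (31 weaker, 25 stronger, 25 turned). A pseudocount of 10 changed the number of members called in 1 count (5 instead of 4 lower between the lines), and keeping only genes above 10 in every library removed *Nup210* and *Kpna2-ps*. With 3 libraries a group, members of few counts (*Nup210*, *Kpna2-ps*) were the least precise.

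Members called lower numbered 11 with the mean of the line coefficients (both lines), 6 with library-sum scaling in SAM1, and 8, 10 and 8 between the lines with quantile normalization, library-sum scaling and centring. Over all genes the numbers called lower were 5625, 4101, 4377, 5079 and 4248 in that order, the last among 14773 genes. Other transport genes called lower numbered 5 with library-sum scaling. The members' median, with quantile normalization, library-sum scaling and centring, was 0.24, 0.32 and 0.11 for both lines, 0.26, 0.30 and 0.0753 for SAM1, and 0.33, 0.36 and 0.15 for SAM2. Between the lines it was 0.0049 with quantile normalization and 0.016 with library-sum scaling. Leaving out each library gave medians of 0.17 to 0.25 (both lines), 0.13 to 0.18 (SAM1), 0.26 to 0.27 (SAM2) and 0.03 to 0.08 (between lines), with 20 to 23, 23 to 25, 24 to 28 and 13 to 17 members higher and 6 to 7, 10 to 12, 8 to 9 and 3 to 6 lower. Over all genes, in the same order, 3368 to 4034, 5364 to 5628, 4993 to 5438 and 4245 to 4883 were called higher. Those called lower numbered 3393 to 4099, 5359 to 5522, 5020 to 5455 and 3979 to 4609.

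Values for both lines that changed sign were, with quantile normalization, *Nup210* -0.388, *Xpot* 0.00272, *Kpnb1* 0.203, *Kpna4* 0.0252, *Kpna6* 0.0621 and *Tnpo1* 0.0823. With library-sum scaling they were *Xpot* 0.0261, *Kpnb1* 0.0861, *Nup98* 0.00443, *Nup85* 0.0410, *Kpna4* 0.0544, *Kpna6* 0.117, *Ipo11* 0.0536 and *Tnpo1* 0.0664. With centring they were *Nup98* 0.137, *Nup62* 0.00749, *Nup35* -0.0354, *Kpna6* 0.135, *Ipo11* 0.0463, *Tnpo1* 0.0591 and *Tnpo3* -0.0201. In SAM1 alone centring gave 0.0185 for *Nup98* and 0.0711 for *Nup62*. In SAM2 alone *Kpnb1* was 0.0203 with quantile normalization and *Nup153* 0.0454 with centring. Leaving out each library turned 3 values, which ranged from -0.0372 to 0.0334 for *Kpna6* over both lines (above 0 without Empty replicate 1 and, at 0.0250, SAM1 replicate 2), from -0.673 to 0.0360 for *Nup210* in SAM1 and from -0.0377 to 0.0931 for *Nup98* in SAM2. The cause was not tested.

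Over all genes, libraries of the same number paired at most weakly. Their deviations from the group means correlated from 0.00237 to 0.117 over 9 pairs (mean 0.053). The 18 pairs of different numbers gave -0.122 to 0.046 (mean -0.0265). Not every library correlated best with its own number. Single members could differ from this. In *Nup188*, *Nup205*, *Nup98* and *Xpo4*, among others, replicate 2 was the lowest library in Empty, SAM1 and SAM2 alike. In *Nup107* it was the highest in each, and *Nup88* showed neither. With the replicate block 21 members were higher and 6 lower over both lines, 25 and 12 in SAM1, 28 and 9 in SAM2, and 19 and 6 between the lines. Over all genes the block gave 3658 higher and 3685 lower over both lines, against 4076 and 4103 without it. In SAM1 it raised the calls to 5849 and 5782, from 5667 and 5608. In SAM2 it raised them to 5551 and 5544, from 5340 and 5359. Between the lines the block gave 5053 and 4759, against 4722 and 4440. Among the comparisons of named genes recomputed, it changed the calls of *Kpna2* over both lines (adjusted p = 0.0616) and *Nup153* in SAM2 (adjusted p = 0.0183). Over both lines, edgeR called 23 members higher and 7 lower, as did DESeq2. Over all 15184 genes edgeR called 4106 higher and 4062 lower, and DESeq2 4296 and 4172.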

Other observations

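The mRNA export list of 18 genes, which covers the factors that load spliced mRNA and carry it through the pore, had 5 genes higher and 4 lower in the SAM libraries (26.8% and 27.0% of all genes were), with a median log2 fold change of -0.05. *Nxf1*, the receptor that takes mRNA through the pore, had normalized counts of 3692, 3715 and 3772 in Empty, 4095, 4077 and 4163 in SAM1 and 4543, 4437 and 4477 in SAM2. The groups did not overlap, and the log2 fold change was 0.20 ± 0.05 SE (limma adjusted p = 0.0042). Its partner *Nxt1* rose by 0.40 ± 0.07 (adjusted p = 0.000934), and *Eny2*, of the export complex at the basket, by 0.43 ± 0.07 (adjusted p = 0.000501), with 3448, 3786 and 3818 in Empty, 4477, 5001 and 4608 in SAM1 and 5361, 5346 and 5080.0 in SAM2.

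The closely related RNA helicases of mRNA export moved in opposite directions. *Ddx39b* (UAP56) rose by 0.31 ± 0.05 (limma adjusted p = 0.000906) and *Ddx39a* (URH49) fell, at -0.24 ± 0.06 (adjusted p = 0.00636). Of the THO complex, which joins transcription to export, *Thoc5* (-0.38 ± 0.06, adjusted p = 0.000441) and *Thoc6* (-0.29 ± 0.07, adjusted p = 0.00829) fell. Over both lines *Thoc1*, *Thoc2*, *Thoc3* and *Thoc7* had 0.17, -0.08, -0.11 and -0.01 and did not pass the test. After centring on their chromosomes *Nxf1*, *Ddx39b*, *Ddx39a*, *Thoc5* and *Thoc6* had 0.29, 0.18, -0.30, -0.41 and -0.43, each past the threshold (adjusted p from 6.87e-05 to 0.0105). *Thoc7* lies on chromosome 14, whose median was 0.55, and stood at -0.56 after centring (adjusted p = 7.69e-06). In single lines without centring, *Thoc2* was called lower in SAM1 (-0.26, limma adjusted p = 0.000354). In SAM2 *Thoc3* was called lower (-0.30, adjusted p = 0.000131) and *Thoc1* higher (0.26, adjusted p = 9.7e-05).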
